A study of Mus musculus with 2 samples.

Results

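Forkhead transcription factors were read in whole limb buds of Bhlha9 knockout and wild-type mouse embryos of the C57BL/6 line at E10.5. The family was taken as every gene whose symbol is Fox, a subfamily letter from a to s and a number, and which the platform annotation gives as the single symbol of a probe set. This found 37 genes with 82 probe sets, out of 18193 genes with 34945 such probe sets. Each genotype was measured on 1 Affymetrix Mouse Genome 430 2.0 array, so there was no spread between samples, no test of the genotype was possible, and "higher" and "lower" describe these 2 arrays. The labels do not say how many embryos were pooled, how fore and hind limb buds were mixed, or how the allele was made.

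Forkhead factors bind DNA through a winged-helix domain, and their subfamilies are named by letter. FOXA proteins are pioneer factors that open chromatin in endoderm and in the floor plate of the neural tube. FOXC, FOXD and FOXF proteins act in mesoderm, including somites, body wall, kidney stroma and gut wall, while the FOXJ, FOXK, FOXN, FOXO and FOXP subfamilies hold broadly expressed members, among them FOXO proteins that insulin signalling moves out of the nucleus and FOXM1, an activator of late cell-cycle genes. In the limb, Foxc genes are known from mesenchyme, and Foxp1 and Foxp2 from the developing nervous system, muscle and limb.

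The values are MAS 5.0 signals on a linear scale, 1 per probe set. A signal counted as above the floor when it exceeded the 40th percentile of its array, 41.8 on the knockout array and 41.2 on the wild-type array. Each gene was read from its probe set with the highest mean signal, and the ratio is log2 of knockout over wild-type after lower signals were raised to the floor. Where 1 array lay under its floor the fold is a bound, written "at least". The disagreement between probe sets of the same gene, over 5440 genes, gave an SD of 0.28 for a log2 ratio, which covers measurement error within the arrays and no difference between embryos. The probe set of Bhlha9 read 1.70 on the knockout array and 7.87 on the wild-type array, under the floor on both, so it did not check the labels. All 15 limb mesenchyme markers were above the floor on both arrays, among them Prrx1, a homeobox gene of early limb mesenchyme, at 6189 on the knockout array and 7757 on the wild-type array.

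Promoter sequences are shown for those genes higher by 2-fold or more on the knockout array that have an entry in the promoter table for GRCm38.p6. Foxc2 and Foxp2 have none there. They run 5′ to 3′ from 250 bases before the annotated start to 50 after it, and capitals mark matches to the forkhead motif TGTTTNC and to the E-box CANNTG, the general binding motif of basic helix-loop-helix proteins, each searched on both strands. For Foxa2, which has several annotated starts, the most upstream window is shown.
Foxa1, chr12:57546062-57546361, minus strand: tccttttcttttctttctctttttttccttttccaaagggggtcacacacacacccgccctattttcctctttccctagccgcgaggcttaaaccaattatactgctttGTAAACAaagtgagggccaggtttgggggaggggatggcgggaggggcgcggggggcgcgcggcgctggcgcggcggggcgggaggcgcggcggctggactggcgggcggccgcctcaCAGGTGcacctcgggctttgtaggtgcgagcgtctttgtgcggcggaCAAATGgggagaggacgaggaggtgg
Foxa2, chr2:148046920-148047219, minus strand: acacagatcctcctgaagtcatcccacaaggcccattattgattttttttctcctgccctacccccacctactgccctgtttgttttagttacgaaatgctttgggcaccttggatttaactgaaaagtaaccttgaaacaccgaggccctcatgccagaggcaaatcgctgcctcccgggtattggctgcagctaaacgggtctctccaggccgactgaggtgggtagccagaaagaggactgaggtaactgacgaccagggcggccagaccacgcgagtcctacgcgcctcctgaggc
Foxd1, chr13:98353995-98354294, plus strand: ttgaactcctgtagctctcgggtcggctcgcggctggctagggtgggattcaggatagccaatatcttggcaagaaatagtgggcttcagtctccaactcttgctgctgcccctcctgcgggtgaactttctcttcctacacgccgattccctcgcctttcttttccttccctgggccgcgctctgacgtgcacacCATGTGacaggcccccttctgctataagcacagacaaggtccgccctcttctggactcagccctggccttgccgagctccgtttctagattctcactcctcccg
Foxf2, chr13:31625566-31625865, plus strand: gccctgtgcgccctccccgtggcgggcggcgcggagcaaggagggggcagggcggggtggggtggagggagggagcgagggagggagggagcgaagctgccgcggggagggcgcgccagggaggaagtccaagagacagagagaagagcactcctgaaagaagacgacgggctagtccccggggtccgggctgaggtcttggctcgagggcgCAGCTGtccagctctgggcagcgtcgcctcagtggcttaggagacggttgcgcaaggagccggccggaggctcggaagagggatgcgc
The Foxa1 window held a forkhead match at bases 110 to 116 and E-boxes at bases 228 to 233 and 275 to 280. The Foxd1 window held an E-box at bases 197 to 202 and the Foxf2 window at bases 213 to 218, and the Foxa2 window shown held neither motif. The most downstream Foxa2 window, which is not shown, held an E-box at bases 28 to 33. Over the 29 promoter windows of the 24 forkhead genes in the table, 6 windows (20.7%) had a forkhead match, against 20.5% of all 32851 windows. An E-box was found in 18 of the 29 (62.1%), against 72.3% of all windows, and 0 E-box matches overlapped a forkhead match. Several windows belong to the same gene, and the forkhead windows had a median GC content of 63%, against 52.7% for all windows, so these shares are a description only.

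Of the 37 forkhead genes, 26 were above the floor on at least 1 array, 20 of them on both, 4 on the knockout array only and 2 on the wild-type array only. Of all genes with a probe set, 5.29% were above the floor on the knockout array only and 3.49% on the wild-type array only. The other 11 lay under the floor on both arrays. The counts that follow are over genes above the floor, and a gene above it only on the knockout array could not have had a negative ratio. By 2-fold or more, 6 genes were higher, namely Foxa1, Foxa2, Foxd1, Foxc2, Foxp2 and Foxf2, and 0 were lower. Of the 13088 genes on the arrays that were above the floor at least once, 4.15% were higher and 2.65% lower by as much. Among the 20 forkhead genes above the floor on both arrays, 4 passed 2-fold in the higher direction, against 2.87% of all 11491 such genes, and 0 in the lower, against 2.51%. Their median log2 ratio was -0.22, and that of all such genes -0.01. Their ratios were above 0 for 9 and below 0 for 11, against 49.1% above and 50.9% below for all such genes. The signs were thus near those of all genes, and the members past 2-fold all lay on the higher side. Because tissue was measured in bulk, more cells of a type and more RNA per cell cannot be told apart.

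**Figure D1:**
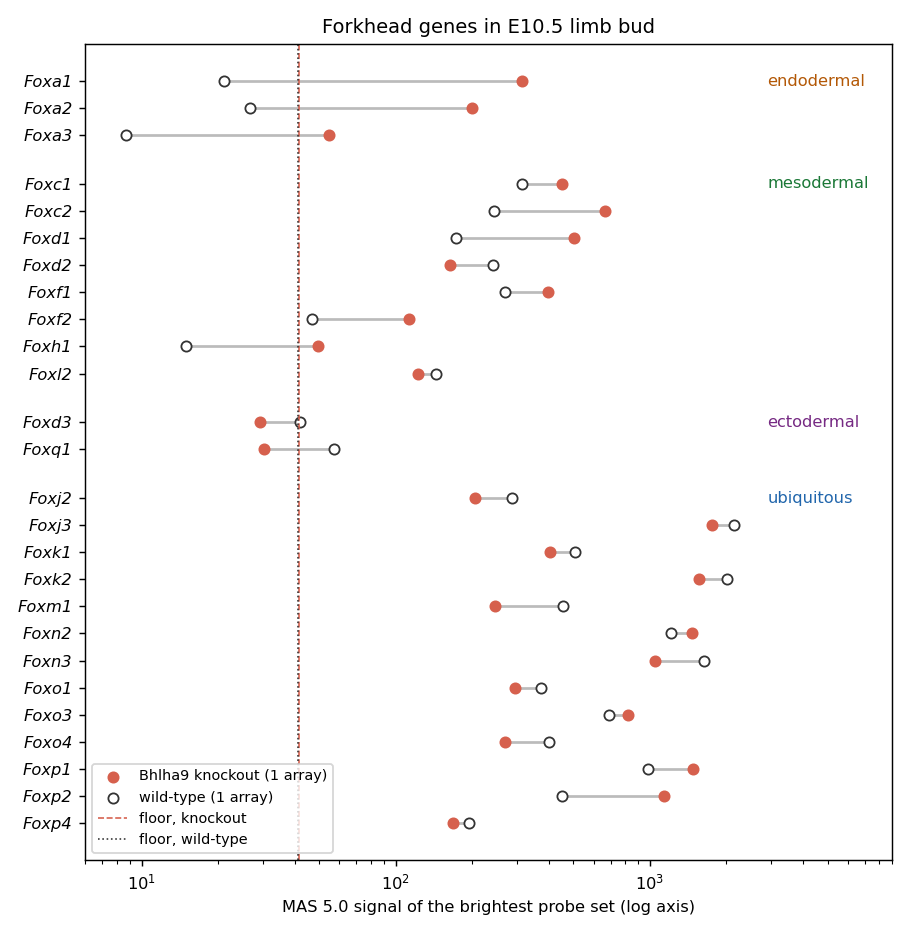
MAS 5.0 signal (log axis) of the brightest probe set of the 26 forkhead genes above at least 1 floor, by class, with filled points for the Bhlha9 knockout array, open points for the wild-type array, and vertical lines at the floors of 41.8 and 41.2. Foxa1, Foxa2 and Foxa3 cross the floor between the arrays, most mesodermal genes have the knockout point on the right, and most ubiquitous genes have it on the left.

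The endodermal class gave the family's largest ratios. Foxa1, a pioneer factor of foregut, liver and floor plate, had a signal of 314 on the knockout array and 21.2 on the wild-type array, at least 7.62-fold higher. Foxa2, which is required for node, notochord, floor plate and definitive endoderm, had 199 on the knockout array and 26.6 on the wild-type array, at least 4.82-fold higher. Foxa3, a hepatic and gut member of the same subfamily, had 54.4 on the knockout array and 8.67 on the wild-type array, at least 1.32-fold higher. All 3 genes were thus above the floor on the knockout array alone, and each has 1 probe set only. With the floor at the 60th percentile, Foxa1 and Foxa2 stayed above it on the knockout array but their bounds came to 1.87-fold and 1.18-fold, under the 2-fold threshold.

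Transcripts of tissues that use Foxa genes differed in the same direction on the same arrays, and the counts for these lists are again to be read beside 4.15% upward and 2.65% downward over all genes. A listed gene above the floor only on the knockout array could not have counted as downward. Such genes were 11 of 13 embryonic liver, 4 of 9 endoderm, 2 of 8 floor plate, 8 of 15 neural tube and 3 of 11 muscle genes. Of 13 embryonic liver markers above the floor, 12 passed 2-fold upward on the knockout array and 0 downward, with a summed signal of 34536 on the knockout array and 426 on the wild-type array. The defining markers Afp, Alb and Ttr, which encode fetal serum proteins, read 19084, 2071 and 4179 on the knockout array and 17.7, 2.26 and 5.23 on the wild-type array. Among endoderm transcription factors, 6 of 9 passed 2-fold upward and 0 downward, with sums of 7076 on the knockout array and 2957 on the wild-type array. Among the 6 are Sox2, at 890 on the knockout array and 136 on the wild-type array, and Isl1, at 3355 on the knockout array and 973 on the wild-type array, which neural progenitors and motor neurons also express and which make up most of the difference between the sums. Hnf4a, a nuclear receptor of hepatocytes, had 196 on the knockout array and 11.1 on the wild-type array, at least 4.76-fold higher. Of the defining members of this list, Gata4 was at least 2.16-fold higher, at 89.1 on the knockout array and 23.6 on the wild-type array, while Sox17, which endothelium also expresses, had a log2 ratio of 0.28. Gata6 and Hhex, further endoderm factors, were within 2-fold at 0.26 and 0.77.

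Floor plate genes, the other setting in which Foxa1 and Foxa2 are known, passed 2-fold upward for 3 of 8 and downward for 0, with sums of 5261 on the knockout array and 2632 on the wild-type array. Corin, a serine protease, had 185 on the knockout array and 1.44 on the wild-type array, at least 4.49-fold higher. Shh, the ligand that floor plate, posterior limb bud and gut endoderm make, had 1986 on the knockout array and 693 on the wild-type array, a log2 ratio of 1.52, and the sulfatase Sulf1 had a ratio of 1.28. Ntn1, the guidance cue of floor plate, had a ratio of 0.54. Spon1 had 395 on the knockout array and 481 on the wild-type array, a ratio of -0.29. Among the 6 listed genes above the floor on both arrays it was the 1 with a negative ratio. Foxj1, a regulator of motile cilia and a member of both the floor plate list and the forkhead family, stayed under the floor, at 25.6 on the knockout array and 1.78 on the wild-type array. In the neural tube list, 10 of 15 genes passed 2-fold upward and 0 downward, with sums of 8195 on the knockout array and 4366 on the wild-type array. Irx3, with the highest signals of that list, ran the other way. It had 1821 on the knockout array and 3341 on the wild-type array, a ratio of -0.88, and makes up most of the wild-type sum. The part of liver, floor plate and neural tube RNA in the Foxa signals was not tested.

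The mesodermal class held 3 of the 6 genes past 2-fold. All 10 genes of the class had a probe set and 8 were above the floor, 7 of them on both arrays. Of the 8, 3 passed 2-fold upward and 0 downward. Among the 7, 5 ratios were above 0 and 2 below, against 49.1% above for all genes above the floor on both arrays, and their median was 0.57. Foxd1, a factor of kidney stroma and retina, had 503 on the knockout array and 173 on the wild-type array, a log2 ratio of 1.54. Foxc2, which acts in sclerotome, vessels and lymphatic valves, had 663 on the knockout array and 244 on the wild-type array, a ratio of 1.44. These genes are each represented by 1 probe set, so no second reading was at hand.

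Foxc1, the paralogue of Foxc2, depended on the probe set. Its brightest one gave 449 on the knockout array and 315 on the wild-type array, a ratio of 0.51, and the other gave 454 on the knockout array and 189 on the wild-type array, a ratio of 1.27. Both readings were higher on the knockout array, and only the dimmer one passed 2-fold. Foxf2, expressed in mesenchyme of gut and palate, had 112 on the knockout array and 46.6 on the wild-type array, a ratio of 1.27 that starts from a wild-type signal just over the floor. Its relative Foxf1, a gut wall and lung mesenchyme factor that responds to hedgehog signals, had 399 on the knockout array and 268 on the wild-type array, a ratio of 0.57. Further probe sets of Foxf1 and Foxf2 lay under the floor on both arrays.

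None of the other mesodermal members passed 2-fold. Foxd2, a relative of Foxd1, had 163 on the knockout array and 242 on the wild-type array, a ratio of -0.57, opposite in sign to that of Foxd1. Foxl2, known from ovary and eyelid, had 122 on the knockout array and 144 on the wild-type array, a ratio of -0.24. Foxh1, the partner of Smad proteins in Nodal signalling, had 49.5 on the knockout array and 14.9 on the wild-type array, at least 1.20-fold higher by 1 of its 3 probe sets. Foxl1, a gut mesenchyme gene, and Foxs1, a gene of perivascular cells, were under the floor on both arrays.

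Several of these genes sit beside each other in the genome. In RefSeq for GRCm38.p6, Foxq1, Foxf2 and Foxc1 follow each other on chromosome 13 with 0 protein-coding genes between them, and Foxc2 and Foxl1 do so on chromosome 8, where 1 protein-coding gene lies between Foxf1 and Foxc2. Not all neighbours read alike. In the first group Foxf2 and Foxc1 had positive ratios and Foxq1 a negative bound. In the second Foxf1 and Foxc2 were higher on the knockout array while Foxl1 read 3.40 on the knockout array and 2.62 on the wild-type array, under the floor.

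The lists of somite, flank and gut wall tissue had positive medians as well, and those of limb mesenchyme and endothelium negative ones. In the paraxial mesoderm and sclerotome list, 2 of 11 genes passed 2-fold upward and 0 downward. The list had a median log2 ratio of 0.60 and sums of 5185 on the knockout array and 4666 on the wild-type array. Its defining markers Meox1 and Pax1, homeobox and paired-box genes of somites, had ratios of 0.68 and 0.86, while Tcf15 was at -0.02. Tbx18, a further member, was at -0.53. In the mesothelium and flank list, 5 of 8 genes passed 2-fold upward and 0 downward, with sums of 5034 on the knockout array and 4032 on the wild-type array. Wt1, a zinc-finger gene of mesothelium and kidney progenitors, had 476 on the knockout array and 118 on the wild-type array. Hand2, with the highest signals of that list, had 2212 on the knockout array and 2857 on the wild-type array, a ratio of -0.37. Osr1 was lower as well, at -0.42. The gut mesenchyme list, the setting of Foxf1 and Foxl1, had 1 of 7 genes past 2-fold upward and 0 downward, and its sums were 6074 on the knockout array and 5216 on the wild-type array. That gene was Isl1, which motor neurons express too, at 3355 on the knockout array and 973 on the wild-type array, a ratio of 1.79. The difference in Isl1 alone is larger than that between the sums. Bmp4 and Wnt2 ran the other way, at -0.94 and -0.84. The defining markers Nkx2-3 and Hand1 were within 2-fold, and Barx1, under the wild-type floor, was at least 1.74-fold higher. Limb mesenchyme ran the other way, with 7 of 15 genes past 2-fold downward and 0 upward, a median of -0.71 and sums of 29192 on the knockout array and 45290 on the wild-type array. The part of such tissues in the mesodermal forkhead signals was not tested.

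Genes of hedgehog signalling, which is known to induce Foxf1, Foxf2 and Foxd genes in facial mesenchyme, gave mixed ratios. Of 12 above the floor, 2 passed 2-fold upward and 1 downward. The median log2 ratio of the list was -0.44. The higher genes were Shh and Hhip, a membrane protein that binds hedgehog ligands, at 130 on the knockout array and 33.3 on the wild-type array, at least 3.16-fold higher. The lower gene was Disp1, which releases the ligand from producing cells, with a ratio of -1.15. Ptch1 and Gli1, which like Hhip are transcriptional readouts of the pathway, had ratios of 0.31 and -0.46.

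Ectodermal members were for the most part not read. Of 10 such genes with a probe set, 8 lay under the floor on both arrays, and those above it were so on the wild-type array only. Over the whole array, 13088 of 18193 genes were above at least 1 floor. Foxq1, an epithelial gene, had 30.2 on the knockout array and 57.1 on the wild-type array, at least 1.37-fold lower. Foxd3, the neural crest regulator, had 29.2 on the knockout array and 42.0 on the wild-type array, where it only just passed the floor. Genes under the floor included Foxb1 and Foxb2 of the neural tube, Foxd4, the lens gene Foxe3 and the otic and kidney gene Foxi1. Foxj1, the skin and thymic epithelial gene Foxn1 and the retinal and spinal cord gene Foxn4 were under it as well. Foxp3, the regulatory T cell factor, was under the floor too, at 8.03 on the knockout array and 27.99 on the wild-type array. Over all 11 genes under the floor, signals ran from 3.40 to 32.04 on the knockout array and from 1.78 to 27.99 on the wild-type array. At these levels no order between the arrays is given.

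Surface ectoderm and neural crest markers, by contrast, were mostly above the floor. Of 14 surface ectoderm markers, 8 passed 2-fold upward on the knockout array and 0 downward, with sums of 11609 on the knockout array and 6577 on the wild-type array. Cdh1, encoding E-cadherin, had a log2 ratio of 1.72, Epcam of 1.36 and Krt5 of 1.01. Of 7 neural crest and glia genes, 5 passed 2-fold upward and 0 downward, with sums of 5444 on the knockout array and 2012 on the wild-type array. Isl1, which motor neurons express too, had 3355 on the knockout array and 973 on the wild-type array, most of the difference between the sums. Ret, a receptor tyrosine kinase of enteric and sympathetic precursors, had the highest ratio, 2.32. The defining markers with a value, Sox10 and Ngfr, ran the other way. Sox10 had 46.5 on the knockout array and 76.6 on the wild-type array, a ratio of -0.72. Ngfr had 218 on the knockout array and 325 on the wild-type array, a ratio of -0.57.

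**Figure D2:**
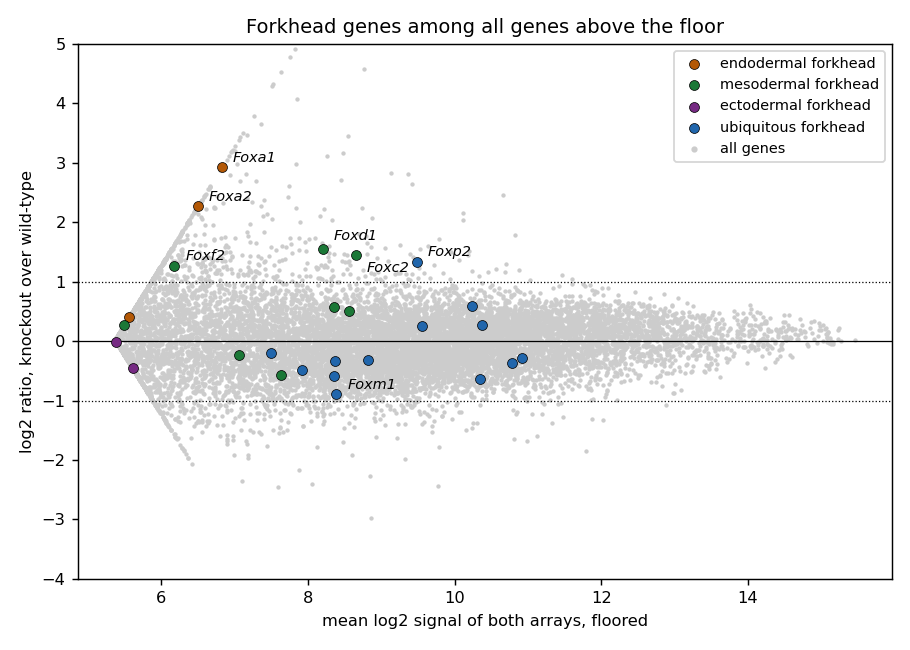
Log2 ratio of knockout over wild-type against mean log2 signal for the 13088 genes above at least 1 floor (grey), with forkhead genes coloured by class and dotted lines at 2-fold; 5 genes lie above the plotted range. Foxa1 and Foxa2 lie on the upper edge formed by genes under the wild-type floor, Foxd1, Foxc2, Foxp2 and Foxf2 above the 2-fold line, and 0 forkhead genes below the lower one.

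The ubiquitous class was above the floor on both arrays for all 13 genes, against 11491 of 18193 genes over the whole array. Of the 13 genes, Foxp2 alone passed 2-fold upward and 0 passed it downward. Of the 13 ratios 9 were below 0, against 50.9% of all genes above the floor on both arrays, and the median was -0.32. Its members are carried by up to 8 probe sets each, so that the sign could be read more than once within the same 2 RNA samples. Such probe sets share their RNA and their gene and are not replicates.

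Foxp genes were the ubiquitous members with the most uniform positive readings. Foxp2, a repressor known from brain, lung and muscle, had 1139 on the knockout array and 450 on the wild-type array by its brightest probe set, a log2 ratio of 1.34. All 6 of its probe sets were above the floor on both arrays, with ratios from 0.88 to 1.34 and a median of 0.96, and 2 of them passed 2-fold. The other Foxp2 probe set past 2-fold gave 170 on the knockout array and 67.4 on the wild-type array. Foxp1, its close relative in heart, lung, motor neurons and lymphocytes, had 1473 on the knockout array and 978 on the wild-type array by its brightest probe set, a ratio of 0.59. All 8 Foxp1 probe sets were higher on the knockout array, with ratios from 0.37 to 0.97 and 0 past 2-fold. The largest Foxp1 ratio came from a probe set with 1049 on the knockout array and 537 on the wild-type array. Foxp1 and Foxp2 were thus higher by every reading, by less than 2-fold in most. Foxp4, another broadly expressed member, had 168 on the knockout array and 194 on the wild-type array, a ratio of -0.20, and 2 dimmer probe sets gave 0.13 and 0.21. Its probe sets thus disagreed in sign within the measurement error.

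Foxm1 had the lowest ratio among the 20 forkhead genes above the floor on both arrays. Its brightest probe set, of a kind prone to cross-hybridisation, gave 246 on the knockout array and 457 on the wild-type array, a log2 ratio of -0.89. Another gave 221 on the knockout array and 341 on the wild-type array, a ratio of -0.63, and the dimmest above the floor gave 116 on the knockout array and 267 on the wild-type array, a ratio of -1.21. Among all 58 forkhead probe sets above at least 1 floor this was the 1 past 2-fold in the lower direction. A further Foxm1 probe set was under the floor. Of 16 genes known as FOXM1 targets, 0 passed 2-fold in either direction, and their median log2 ratio was 0.04. Plk1, a mitotic kinase, had the lowest ratio of the list, -0.77, and Top2a, a topoisomerase of dividing cells, the highest, 0.38.

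None of the FOXO genes passed 2-fold. Foxo1 had 294 on the knockout array and 371 on the wild-type array, a ratio of -0.34, with -0.39 and -0.27 by the other 2 probe sets above the floor. Foxo3 had 817 on the knockout array and 689 on the wild-type array, a ratio of 0.25, and 0.01 by its other probe set above the floor. Foxo4 had 268 on the knockout array and 401 on the wild-type array, a ratio of -0.58. Its other probe set had 27.0 on the knockout array and 44.2 on the wild-type array, at least 1.06-fold lower. On the deposited scale, Foxo1 and Foxo4 thus read lower on the knockout array, both by more than the measurement SD at the brightest probe set. Foxo3 differed by less than it. Under quantile and loess scaling the Foxo1 ratio was -0.19 and -0.18, within that SD, and the Foxo3 ratio was 0.34 under both, beyond it. Of 14 upstream regulators of FOXO proteins, 0 passed 2-fold in either direction, with Sgk1, a kinase that phosphorylates FOXO proteins, highest at 0.92 and Igf1r, the insulin-like growth factor receptor, lowest at -0.71. Of 16 FOXO target genes 0 passed 2-fold upward and 1 downward, the pseudokinase gene Trib1 at -1.15. Their median was 0.16. Cdkn1b, a cell-cycle inhibitor that FOXO proteins induce, was at 0.43.

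The other broadly expressed members leaned slightly below 0. Foxn3, a checkpoint-related repressor, had 1045 on the knockout array and 1629 on the wild-type array, a ratio of -0.64, and all 4 of its probe sets were negative, from -0.64 to -0.27. Foxk2, a partner of chromatin-modifying complexes, had 1556 on the knockout array and 2002 on the wild-type array, a ratio of -0.36, and its 5 probe sets ran from -0.57 to -0.20. Foxk1, known from myogenic progenitors, had 406 on the knockout array and 506 on the wild-type array, a ratio of -0.32, with 0.24 by a dimmer probe set. A further Foxk1 probe set read 1.87 on the knockout array and 41.6 on the wild-type array, where it only just passed the floor. Foxn3 and Foxk2 thus kept their sign over all of their probe sets, and Foxk1 did not. Foxj2 had 206 on the knockout array and 287 on the wild-type array, a ratio of -0.48. Foxj3 had 1752 on the knockout array and 2141 on the wild-type array, a ratio of -0.29, and 0.01 by its dimmer probe set. Foxn2 had 1466 on the knockout array and 1209 on the wild-type array, a ratio of 0.28, whereas its other probe set gave 96.9 on the knockout array and 157 on the wild-type array, a ratio of -0.69.

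Across the family, 7 genes had 3 or more probe sets above the floor on both arrays. All ratios were above 0 for Foxp1 and Foxp2, against 17.9% of the 2341 genes with as many such probe sets. All ratios were below 0 for 4 genes, Foxk2, Foxm1, Foxn3 and Foxo1, against 25.5%. Foxp4 was mixed. Of the 13 forkhead genes with 2 or more probe sets above at least 1 floor, 4 disagreed in sign, namely Foxj3, Foxk1, Foxn2 and Foxp4.

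**Figure D3:**
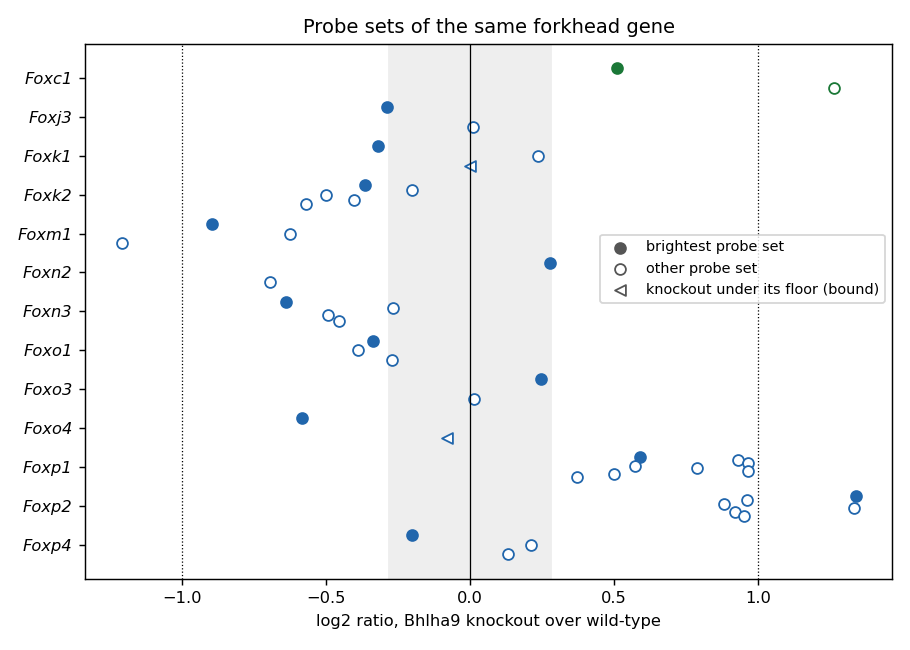
Log2 ratio of knockout over wild-type for each probe set above at least 1 floor, for the 13 forkhead genes with 2 or more of them; filled points mark the brightest probe set, triangles a bound, the grey band the SD of 0.28 on either side of 0 and dotted lines 2-fold. All 8 Foxp1 and 6 Foxp2 points lie right of the band, and the Foxm1 and Foxk2 points lie left of 0.

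**Figure D4:**
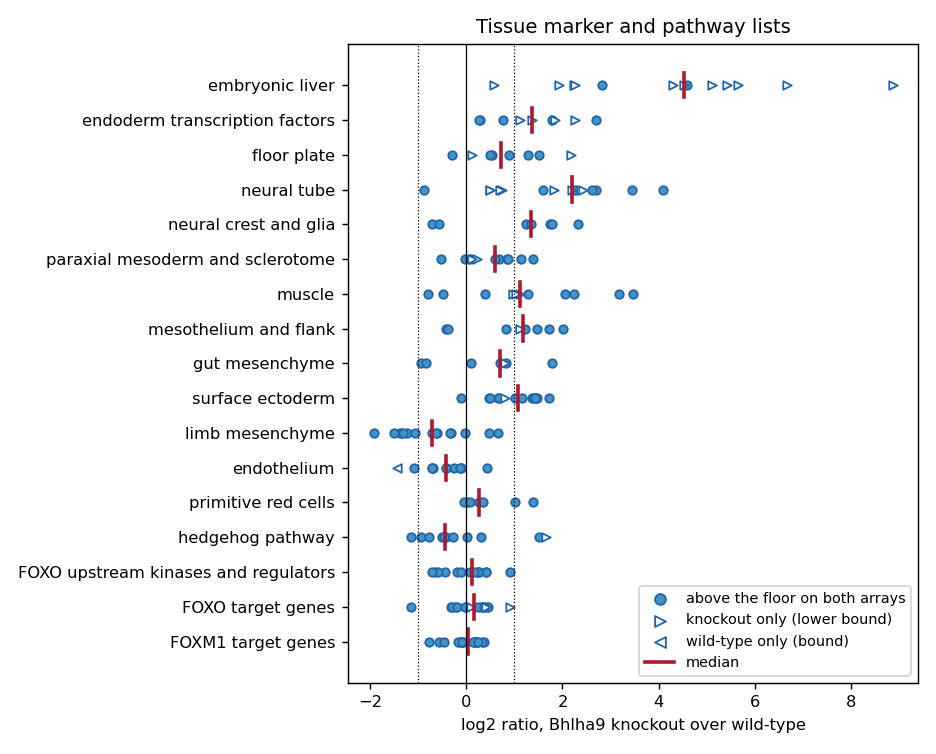
Log2 ratio of knockout over wild-type of each gene of the tissue marker and pathway lists, with triangles for bounds, a bar at each median and dotted lines at 2-fold. The embryonic liver, neural tube and endoderm lists have the highest medians, limb mesenchyme the lowest at -0.71, and the FOXO and FOXM1 lists around 0.

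The lists also covered tissues in which Foxp1, Foxp2 and the Foxc genes are known. In the muscle list, 7 of 11 genes passed 2-fold upward and 0 downward, with sums of 4150 on the knockout array and 2385 on the wild-type array, and the defining myogenic factors Myog, Myf5 and Myod1 were all among them, Myog with 369 on the knockout array and 89.1 on the wild-type array. Lbx1, a gene of muscle precursors migrating into the limb, ran the other way at a log2 ratio of -0.80, as did the cardiac actin gene Actc1 at -0.47. Sox2, a neural progenitor factor of the neural tube list, had 890 on the knockout array and 136 on the wild-type array. Endothelial genes, the setting of Foxc2 and Foxo1 in vessels, passed 2-fold downward for 2 of 12 and upward for 0, with sums of 6264 on the knockout array and 7743 on the wild-type array, and Kdr, the main VEGF receptor, had a log2 ratio of -1.09. Primitive red cell genes passed 2-fold upward for 2 of 7, Klf1 at a ratio of 1.02 and Epb42 at 1.39, and downward for 0. The defining globin gene Hbb-bh1 had 35543 on the knockout array and 29650 on the wild-type array. Its ratio of 0.26 and those of the other defining globin genes, Hba-x at 0.01 and Hbb-y at -0.04, lay within the measurement SD of 0.28. The part of muscle, neural and vessel RNA in these forkhead signals was not tested.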

How the data were processed

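Total RNA from E10.5 limb buds was labelled by 3′ IVT from 200 ng and hybridised to 1 array per genotype, per the labels' protocols. The authors deposited MAS 5.0 intensity values on a linear scale, 1 per probe set, per the series' design text and the submitters' processing notes; each array was scaled on its own, and its 2% trimmed mean came to 500.0. Of 45101 probe sets, 64 controls were left out. Symbols came from the platform annotation, and all 82 forkhead probe sets matched RefSeq (GRCm38.p6) by Entrez identifier. A further 2 probe sets that list a forkhead gene among several symbols were not used, and 7 annotated forkhead genes were not analysed here. The floor, the bound, the probe set rule and the 2-fold threshold are given in the report. Some steps, but not all, were checked on simulated data. With 1 array per group no p-value was given, and precision is limited by the number of arrays. Forkhead genes were placed in classes by textbook expression. All forkhead genes and Bhlha9 were named. Of the lists, some of the defining markers and some of the largest ratios past 2-fold were named, and others of both kinds were not. Some members within 2-fold (Top2a, Igf1r and others) were picked after their values were seen. The family, classes, lists and floor were chosen with earlier results of these data known. Alternatives changed the scaling, floor, probe set choice and threshold. Python 3.11.15 (numpy 2.4.6, pandas 2.3.3) were used, and limma 3.58.1 in R 4.3.3 for quantile and loess scaling.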

Additional observations from a re-analysis of the deposited data

How the results depend on the processing

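Over 26 forkhead genes and up to 9 alternatives to scaling, floor and probe set choice, 206 of 227 log2 ratios moved by less than the measurement SD of 0.28 and 21 moved by more. The sign held at every setting for 23 genes, and not for Foxd3, Foxn2 and Foxp4. Foxc2, Foxd1 and Foxp2 stayed past 2-fold upward at all 9, Foxa1 and Foxa2 at 8, and Foxf2 at 7 of the 8 that gave it a value.

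The floor mattered most. With it at the 20th percentile, 12 forkhead genes passed 2-fold upward and 1 downward. Of all 16522 genes above that floor at least once, 1860 passed upward and 1365 downward. Of the 12 forkhead genes, 5 were mesodermal and 3 ectodermal. The class medians came to 2.90 for endodermal, 1.17 for mesodermal and 0.44 for ectodermal genes. With no floor, 13 forkhead genes passed upward and 1 downward, against 2486 and 1959 of all 18193 genes. Of the 13, 5 were mesodermal and 4 ectodermal, and those class medians were 2.90, 0.92 and 0.82. The gene downward at both settings was Foxp3, at 8.03 on the knockout array and 27.99 on the wild-type array, and with no floor Foxm1 no longer had the lowest ratio of the family. A pseudocount of 32 in place of a floor gave 1.98 for endodermal and 0.10 for ectodermal genes. With the floor at the 60th percentile 3 forkhead genes passed upward and 0 downward, against 160 and 157 of all 9742 genes above it. Of the 3, 0 were endodermal, and the endodermal median was 0.57. At 1.5-fold, 7 forkhead genes passed upward, 2 of them ubiquitous, and 2 downward, both ubiquitous. Over all 13088 genes, 1472 passed 1.5-fold upward and 1534 downward. At 3-fold, 2 forkhead genes passed upward, with 0 mesodermal and 0 ubiquitous among them, and 0 downward. Over all 13088 genes, 175 passed 3-fold upward and 45 downward. The floor changes which genes have a ratio and the size of each bound, and values near it rest on few signal units. Under each scaling tried, the median ratio over genes above the floor on both arrays shifted by less than 0.1. Over all genes, loess gave 636 upward and 257 downward against 543 and 347 on the deposited scale, while the forkhead counts were 6 and 0 under both. The ubiquitous median was -0.32 on the deposited scale, -0.18 under loess, -0.19 under quantile scaling and -0.21 over the mean of probe sets. No paired analysis was possible because each genotype has 1 array.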
